A study of Mus musculus with 36 samples.

Results

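Csf2ra, Csf2rb and Csf3r encode receptor chains for myeloid growth factors, and Cd33 encodes a surface marker of myeloid cells. The transcripts of these 4 genes were followed here through 8 sorted mouse populations between the stem cell and the committed T or B precursor. The genes were taken by their annotation: every probe set of the array that names exactly 1 of the 4 was used, which gave 6 of the 34945 probe sets with 1 gene and 4 of the 18193 genes measured. Csf2ra (1420704_at and 1420703_at) and Csf2rb (1455660_at and 1421326_at) had 2 probe sets each, and Csf3r (1418806_at) and Cd33 (1450513_at) had 1 each. A further probe set, 1450200_s_at, is annotated to both Csf2rb and its neighbour Csf2rb2 and was left out. None of the 4 genes is named in a sorting gate.

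The series comprised 36 one-colour arrays of C57BL6 mice, both sexes together, all labelled with an age of 1 week and with no treatment or altered allele named. Stem cells sorted as LSKFlt3-CD48-CD150+ (HSC in what follows) had 6 arrays, as did LSKFlt3hi IL7R+ cells from marrow (LSK), which the labels take to seed the thymus. ETPFlt3hi cells (ETP), the earliest progenitors in the thymus, and DN3 thymocytes also had 6 arrays each. The intermediate DN2Kit+ stage (DN2) had 3 arrays, CLP (a further candidate for seeding the thymus) 4, Adult_ETP (adult ETP) 2 and the B-cell progenitor Pro_B (pro-B) 3. The adult ETP arrays also carry the age label of 1 week. The arrays fall into 2 deposit sets by the style of their labels. Set 1 holds 15 arrays (3 each of HSC, LSK, ETP, DN2 and DN3), each from a pool of several mice. Set 2 holds the other 21 (3 each of HSC, LSK, ETP, DN3 and pro-B, the CLP and the adult ETP arrays), and its labels do not say whether mice were pooled. The sets were normalized apart, so levels are compared only within a set, and replicates are numbered 1 to 3 in set 1 and 4 to 6 in set 2 for populations present in both. One CLP array has no number in its title and is called replicate 4.

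As background, Csf2ra encodes the ligand-specific chain of the receptor for GM-CSF, and Csf2rb the common beta chain, which signals for GM-CSF, IL-3 and IL-5 through Jak2 and Stat5. Csf3r encodes the receptor for G-CSF, which drives neutrophil production and mobilises stem cells from marrow. Cd33 encodes a sialic acid-binding lectin of the Siglec family that is used as a marker of myeloid cells. Multipotent marrow progenitors and early thymic progenitors can still form myeloid cells, a capacity that is lost as T-cell precursors commit between the DN2 and DN3 stages.

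The annotation table (GRCm38) places Csf2ra on chromosome 19 (61217191 to 61228461), Csf2rb on chromosome 15 (78325800 to 78351001), Csf3r on chromosome 4 (126023441 to 126044975) and Cd33 on chromosome 7 (43527399 to 43537424). The RefSeq promoter table (GRCm38.p6) matched 3 of the 4 genes, and the 250 bases before the listed start are shown because they are the regulatory sequence beside the transcripts measured. They lie at chr19:61228419-61228668 (minus strand) for Csf2ra, chr4:126024409-126024658 (plus strand) for Csf3r and chr7:43533172-43533421 (minus strand) for Cd33. The annotated spans of these genes reach upstream of the listed starts, so other starts may be in use. Capitals mark GAGGAA, a core recognised by the myeloid and early lymphoid factor PU.1, and TGTGGT, a core recognised by RUNX factors.

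Cd33: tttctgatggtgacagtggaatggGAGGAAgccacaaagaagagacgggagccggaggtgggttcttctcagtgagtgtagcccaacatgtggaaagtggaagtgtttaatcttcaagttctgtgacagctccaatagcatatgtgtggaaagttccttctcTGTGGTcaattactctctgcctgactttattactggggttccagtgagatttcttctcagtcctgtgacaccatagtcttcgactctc

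Csf2ra: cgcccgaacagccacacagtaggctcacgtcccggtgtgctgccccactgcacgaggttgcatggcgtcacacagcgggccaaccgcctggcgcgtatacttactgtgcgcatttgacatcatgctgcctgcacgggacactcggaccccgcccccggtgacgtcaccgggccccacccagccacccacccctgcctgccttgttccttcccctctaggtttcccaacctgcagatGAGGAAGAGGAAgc

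Csf3r: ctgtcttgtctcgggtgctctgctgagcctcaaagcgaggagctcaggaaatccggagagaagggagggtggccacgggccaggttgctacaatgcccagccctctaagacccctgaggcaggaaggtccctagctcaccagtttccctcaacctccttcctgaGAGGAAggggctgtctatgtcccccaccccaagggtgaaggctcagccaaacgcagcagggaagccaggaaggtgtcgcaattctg

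Both strands were searched for these 2 words. They were also searched for TTGCNNAA, a form recognised by C/EBP factors. The 3 words do not overlap one another in these windows. The Cd33 window held GAGGAA beginning 226 bases before the start and TGTGGT 88 bases before it. The Csf2ra window held GAGGAA at 14 bases and again at 8 bases before the start, as 2 adjoining copies, and the Csf3r window held it at 86 bases. TTGCNNAA was not among the letters of any of the 3 windows. Over all 32851 windows of this length in the table, 23.3% held the PU.1 word, 14.0% the RUNX word and 9.56% the C/EBP word, so each of these short words is common. The matches describe the letters only.

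HSC, DN2, DN3 and pro-B carried their markers, while LSK and CLP were not separated by the markers given here. Mecom, a stem cell factor, averaged 10.30 in HSC of set 1 and 10.15 in set 2, and at most 5.89 in any other population. Il2ra, which defines the DN2 and DN3 stages, averaged 12.27 in DN2, Cd3e averaged 12.10 and 11.46 in DN3 of sets 1 and 2, and Pax5 averaged 10.76 in pro-B. The median of an array was between 5.12 and 5.22 in set 1, and set 2 had medians of 5.84 to 5.95. Marker genes of late granulocytes were raised in part of the marrow and pro-B arrays, as described with their values after the 4 genes. All levels are expression values as deposited, read as log2, so that a difference of 1 is 2-fold. The files used here give no detection calls, so a low value cannot be told from background signal.

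Cd33 was low in stem cells, high in the marrow progenitors and ETP, and low again in DN2 and DN3. In set 1 it stood at 4.24, 4.14 and 3.72 on the 3 HSC arrays and at 8.45, 8.35 and 8.74 on the LSK arrays. In ETP of set 1 it stood at 8.61, 8.84 and 8.37. LSK and ETP arrays thus overlapped each other and lay far above every HSC array. In DN2 it stood at 5.21, 4.38 and 5.52, and in DN3 at 4.14, 3.94 and 4.25. The DN2 arrays lay above all DN3 arrays, and DN2 replicate 2 lay nearest to them. The means in set 1 were 8.60 ± 0.24 (SD, n = 3) in ETP, 8.51 ± 0.20 in LSK, 5.03 ± 0.59 in DN2, 4.11 ± 0.16 in DN3 and 4.03 ± 0.28 in HSC.

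Set 2 gave the same low and high populations and 3 more. Cd33 stood at 5.04, 5.68 and 5.58 in HSC, and at 9.36, 8.995 and 9.02 in LSK. It stood at 9.49, 9.22, 9.49 and 8.58 in CLP, the last being the array with no number. The 4 CLP values enclosed the LSK values. In ETP it stood at 8.76, 9.40 and 9.33, and in adult ETP at 9.62 and 9.81. Both adult arrays lay above every ETP array of the set, by little. In DN3 it stood at 5.17, 5.44 and 5.32, and in pro-B at 7.23, 6.60 and 6.41. Pro-B thus took a place of its own, below all LSK, CLP and ETP arrays and above all HSC and DN3 arrays. The means were 9.71 ± 0.14 (SD, n = 2) in adult ETP, 9.19 ± 0.43 (n = 4) in CLP, 9.16 ± 0.35 (n = 3) in ETP, 9.12 ± 0.20 in LSK, 6.74 ± 0.43 in pro-B, 5.43 ± 0.34 in HSC and 5.31 ± 0.14 in DN3.

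In the order of these means, neighbours were separated at few places, by limma fitted within each set and adjusted over all probe sets. In set 1 only the step from LSK down to DN2 was called (adjusted p = 1.35e-06), a pair in which 4.13% of probe sets were called. In set 2 LSK stood above pro-B (adjusted p = 8.50e-06), against 3.59% of probe sets, and pro-B above HSC by 1.31 (adjusted p = 0.000816), against 13.2%. The steps among adult ETP, CLP, ETP and LSK had adjusted p-values from 0.594 to 1.00, and that between HSC and DN3 one of 0.776.

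**Figure D1:**
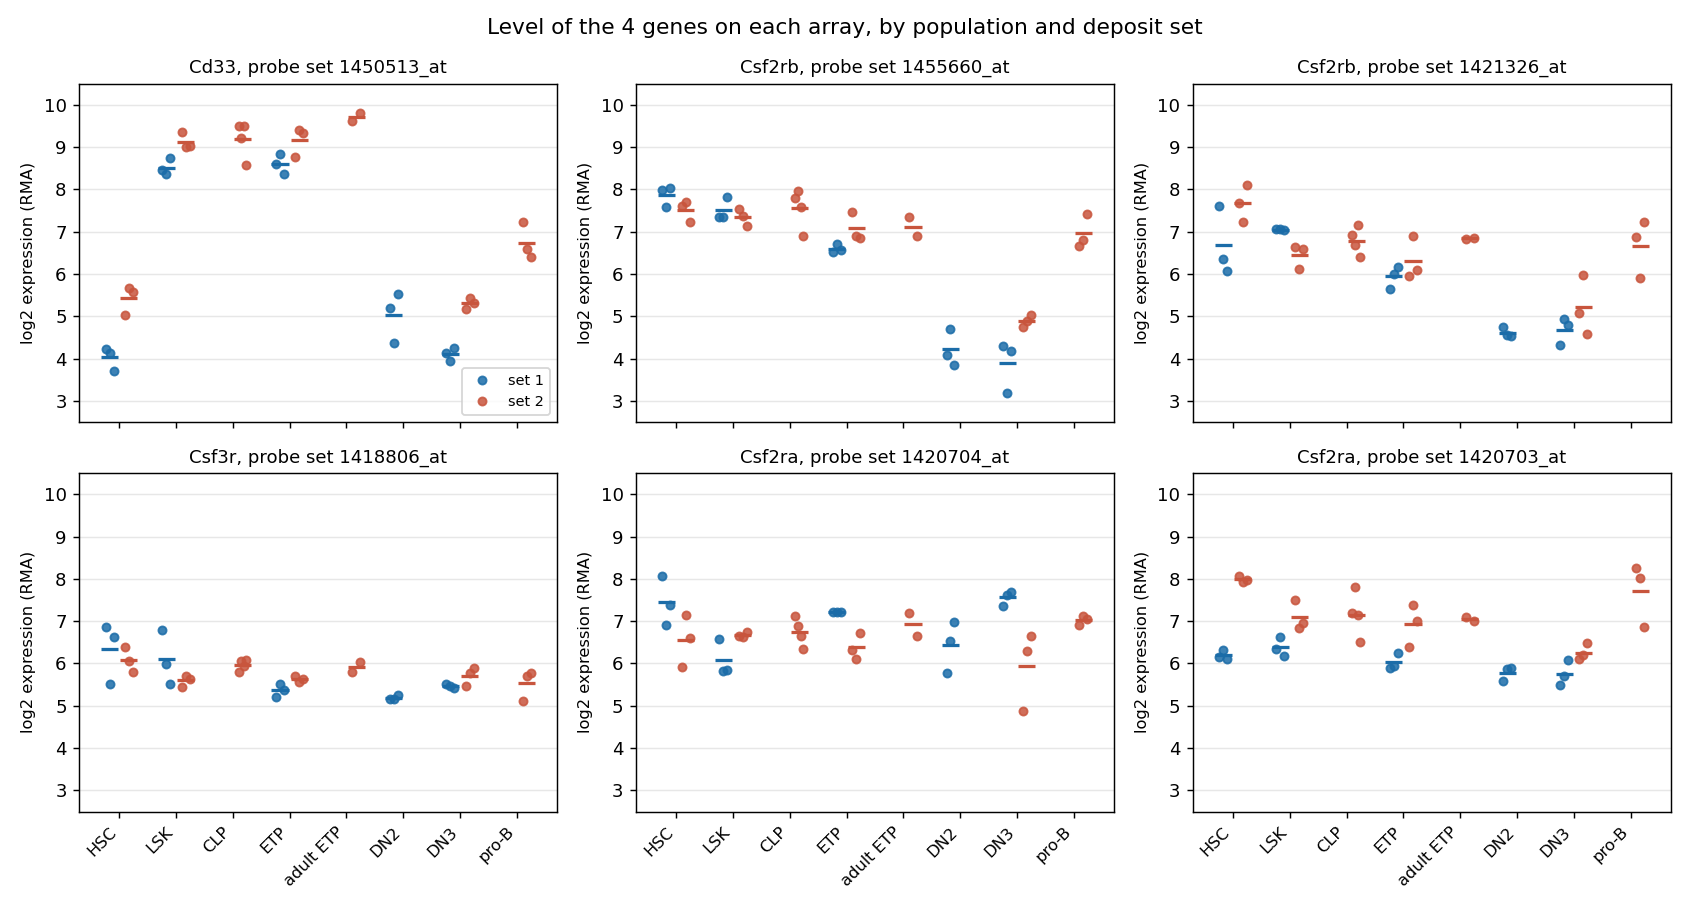
Log2 expression of each of the 6 probe sets (vertical axis) on every array, by population (horizontal axis), with set 1 in blue, set 2 in red and a bar at each mean. Cd33 lies above 8 on every LSK, CLP, ETP and adult ETP array and below 6 on every HSC, DN2 and DN3 array, and Csf2rb (1455660_at) is at most 5.04 on the DN2 and DN3 arrays.

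Differences between populations were fitted with limma over all 36 arrays, with the deposit set as a term, and a gene counted as called at a Benjamini-Hochberg adjusted p under 0.05 over all genes together with a difference of at least 1. The 13 comparisons share arrays and are not independent of one another. In LSK against HSC 1 of the 4 genes was called, where 8.41% of all genes were. In CLP against HSC it was 1 of 4, against 6.99%. ETP against HSC gave 1 of 4, against 8.58%. Each of these single calls was Cd33. Among the high populations nothing was called: 0 of 4 in CLP against LSK (0.33% of all genes), 0 in ETP against LSK (1.67%), 0 in ETP against CLP (1.39%) and 0 in adult ETP against ETP (0.209%). At an unadjusted p under 0.05, limma passed 0, 1, 2 and 0 of the 4 genes in these 4 comparisons, where 10%, 11.1%, 12.5% and 14.9% of all genes passed. In the thymus, 2 of 4 were called in DN2 against ETP, where 3.09% of all genes were, and 2 of 4 in DN3 against ETP, against 5.9%. These were Cd33 and Csf2rb both times. In DN3 against DN2 it was 0 of 4, against 2.34%, with 1 at an unadjusted p under 0.05, which 20.7% of all genes reached. Pro-B gave 1 of 4 against LSK (4.3% of all genes), 1 of 4 against CLP (5.85%) and 2 of 4 against DN3 (8.27%). Csf2ra and Csf3r were called in none of the 13 comparisons of this fit. Fits within one set called each of them in places, as given with their values.

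Cd33 was higher in LSK than in HSC by 4.09 ± 0.20 (SE, adjusted p = 5.38e-17), with 4.48 within set 1 and 3.69 within set 2. CLP exceeded HSC by 3.99 ± 0.23 (adjusted p = 1.20e-14), and ETP by 4.15 ± 0.20 (adjusted p = 4.12e-17). In all of these comparisons every array of the higher population exceeded every HSC array of its set. A pool of sorted cells gives a sum over cells, so that fewer cells with the transcript and less transcript per cell cannot be told apart. Among LSK, CLP and ETP the differences were small: -0.09 for CLP against LSK (95% interval -0.57 to 0.38), 0.06 for ETP against LSK (-0.34 to 0.47) and 0.16 for ETP against CLP (-0.32 to 0.63). These intervals leave room for less than a 2-fold difference either way. For adult ETP against ETP the difference was 0.36 (-0.23 to 0.95, adjusted p = 0.580), with 2 adult arrays.

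Within the thymus Cd33 fell by 3.38 ± 0.25 from ETP to DN2 (adjusted p = 1.15e-11), with 3 of 3 DN2 arrays below every ETP array of set 1. From ETP to DN3 it fell by 4.17 ± 0.20 (adjusted p = 2.46e-17), with differences of -4.49 within set 1 and -3.85 within set 2. The further difference from DN2 to DN3 was -0.79 ± 0.25 and was not called (adjusted p = 0.0551). Without DN2 replicate 2, the lowest of the DN2 arrays, it was -1.12 and was called (adjusted p = 0.0109), and over all single arrays left out it ran from -1.12 to -0.55. Within set 1 Cd33 in DN2 exceeded HSC by 1.00 (adjusted p = 0.0127), where 11% of probe sets were called. In pro-B Cd33 fell short of LSK by -2.54 ± 0.25 (adjusted p = 6.51e-09) and of CLP by -2.45 ± 0.26 (adjusted p = 3.17e-08). It exceeded DN3 by 1.56 ± 0.25 (adjusted p = 1.81e-05). The comparison of the committed precursors thus had Cd33 higher on the B side on 3 of 3 arrays. All 3 pro-B arrays also had raised late granulocyte markers, as given below, and the part of these in the pro-B level of Cd33 was not tested.

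**Figure D2:**
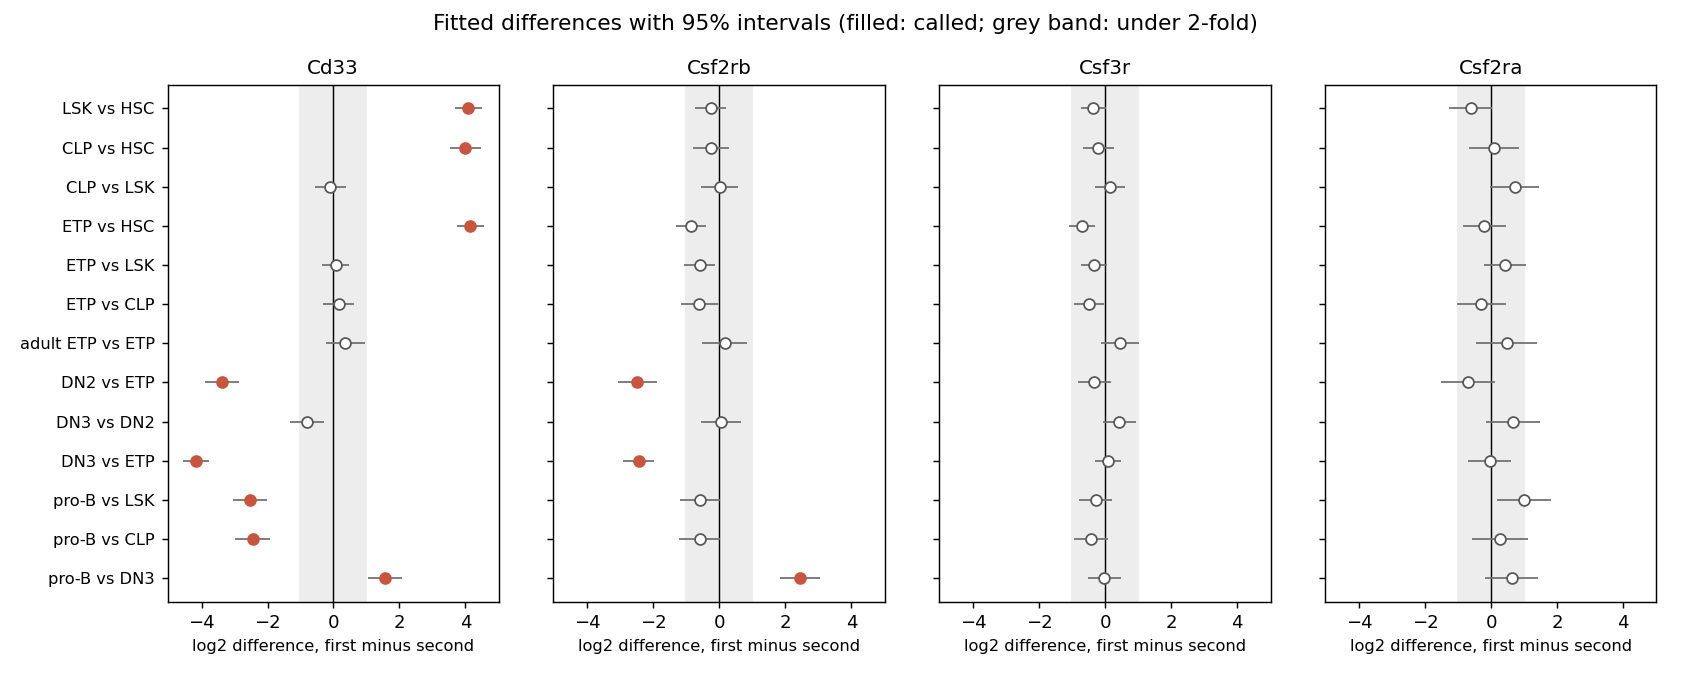
Fitted log2 difference (horizontal axis, first population minus second) of each gene in the 13 comparisons (vertical axis), with 95% intervals, filled points for called differences and a grey band for differences under 2-fold. Cd33 is called in 8 comparisons and Csf2rb in 3, and all points of Csf3r and Csf2ra lie inside the grey band.

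Csf2rb, the beta chain, was high in stem cells and in the marrow progenitors and dropped between ETP and DN2. In set 1 the brighter probe set, 1455660_at, stood at 7.98, 7.59 and 8.03 in HSC and at 7.34, 7.35 and 7.83 in LSK. It stood at 6.51, 6.70 and 6.56 in ETP, below every LSK and HSC array of the set. In DN2 it stood at 4.09, 4.71 and 3.86, and in DN3 at 4.30, 3.19 and 4.19, so that DN2 and DN3 overlapped. No array of either came near an ETP array. In set 2 it stood at 7.62, 7.69 and 7.24 in HSC, at 7.54, 7.38 and 7.14 in LSK and at 7.80, 7.96, 7.59 and 6.90 in CLP. ETP stood at 7.47, 6.91 and 6.85, adult ETP at 7.34 and 6.90 and pro-B at 6.66, 6.80 and 7.43. All these populations overlapped. DN3 alone stood apart, at 4.74, 4.89 and 5.04.

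From ETP to DN2 Csf2rb fell by 2.49 ± 0.29 (adjusted p = 2.00e-07), and from ETP to DN3 by 2.44 ± 0.23 (adjusted p = 4.90e-10). DN3 differed from DN2 by 0.05 (95% interval -0.55 to 0.65). Pro-B exceeded DN3 by 2.45 ± 0.29 (adjusted p = 1.07e-07). Pro-B stood at -0.59 against LSK (-1.19 to 0.01) and at -0.60 against CLP (-1.22 to 0.02), neither called. LSK against HSC gave -0.26 (-0.73 to 0.21), CLP against HSC -0.25 (-0.80 to 0.29) and CLP against LSK 0.01 (-0.54 to 0.56). ETP was below HSC by -0.86 ± 0.23, which passed the p threshold (adjusted p = 0.00431) but not the 2-fold one. Within set 1 that difference was -1.28 and was called (adjusted p = 0.00796, where 8.15% of probe sets were), and within set 2 it was -0.44. The difference between the sets, 0.84, did not pass a test of its own (interaction, adjusted p = 0.603). In the order of means, HSC came first in set 1 (7.87 ± 0.24) and CLP in set 2 (7.56 ± 0.46), and the only neighbours set apart were ETP and DN2 in set 1 (adjusted p = 0.000242, against 2.15% of probe sets called) and pro-B and DN3 in set 2 (adjusted p = 1.50e-05, against 7.11%).

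The second Csf2rb probe set, 1421326_at, was tested among all probe sets. It fell from ETP to DN2 by 1.35 (adjusted p = 0.0214), where 2.62% of probe sets were called, and was lower in DN3 than in ETP by -1.18 (adjusted p = 0.00322), where 5.13% were. It was higher in pro-B than in DN3 by 1.56 (adjusted p = 0.00184), against 7.64%. These changes had the direction of the brighter probe set and were smaller. Unlike that probe set it was also called in ETP against HSC, lower by -1.05 (adjusted p = 0.00533), against 7.94%. Its 3 HSC arrays of set 1 ranged widely, at 7.60, 6.36 and 6.06, and enclosed the LSK mean of 7.05. In set 2 its HSC arrays lay between 7.23 and 8.11 and its LSK arrays between 6.13 and 6.65, with no overlap. Within that set HSC was called higher than LSK by 1.22 (adjusted p = 0.0295), where 7.89% of probe sets were called, while by 1455660_at the arrays of these populations overlapped. Csf2rb2, the neighbouring gene for a beta chain that mouse IL-3 uses, has its own probe set and moved at another step. It stood at 7.08, 7.66 and 7.11 in HSC of set 1 and at 5.75, 5.41 and 6.18 in LSK, with no overlap. It was lower than in HSC by -1.56 ± 0.21 in LSK (adjusted p = 3.58e-07), by -1.77 ± 0.24 in CLP and by -2.28 ± 0.21 in ETP (adjusted p = 1.72e-10). From ETP to DN2 its difference was -0.97 (adjusted p = 0.0203), just under 2-fold. The probe set that reads both genes spanned 1.63 between its lowest and highest population mean in set 1, where 1455660_at spanned 3.97. In set 2 the spans were 0.65 and 2.67. By the shared probe set the step from ETP to DN3 was small, with means of 5.96 and 5.63 in set 1. In set 2 these means were 6.87 and 6.77, and the ETP and DN3 arrays overlapped in both sets. DN2 averaged 5.36.

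Csf3r, the G-CSF receptor, had the smallest span of the 4 genes in set 2 and was called in none of the 13 fitted comparisons. In HSC it stood at 6.87, 5.52 and 6.63 in set 1 and at 6.38, 6.05 and 5.79 in set 2. In LSK it stood at 6.78, 5.99 and 5.52 in set 1 and at 5.45, 5.72 and 5.64 in set 2. The HSC and LSK arrays of set 1 were thus the most variable, with SDs of 0.72 and 0.64. ETP stood at 5.21, 5.51 and 5.38 in set 1 and at 5.70, 5.57 and 5.63 in set 2, below every HSC array of its set. The fitted difference between ETP and HSC was -0.71 ± 0.19 (adjusted p = 0.00491), past the p threshold and under 2-fold. DN2 lay between 5.16 and 5.25, and DN3 between 5.43 and 5.52 in set 1 and between 5.46 and 5.88 in set 2. CLP ran from 5.81 to 6.08, adult ETP stood at 5.81 and 6.02, and pro-B ran from 5.12 to 5.76. Within set 1 alone DN2 was called lower than HSC, by -1.14 (adjusted p = 0.0245), where 11% of probe sets were called. No neighbours in the order of means were set apart in either set, with adjusted p-values from 0.273 to 1.00. Population means spanned 1.14 in set 1 and 0.54 in set 2.

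Csf2ra, the alpha chain, gave values that depended on the probe set and the deposit set. By 1420704_at it stood in set 1 at 8.06, 6.90 and 7.38 in HSC, at 6.58, 5.83 and 5.84 in LSK and at 7.22, 7.22 and 7.21 in ETP. DN2 stood at 5.78, 6.52 and 6.99 and DN3 at 7.37, 7.63 and 7.69. In that set the lowest population was LSK and the highest DN3. Set 2 had DN3 lowest, at 4.88, 6.30 and 6.64, and HSC at 5.92, 7.15 and 6.61 beside LSK at 6.64, 6.63 and 6.75. CLP ran from 6.33 to 7.13, ETP from 6.10 to 6.71 and pro-B from 6.90 to 7.12, and adult ETP stood at 7.20 and 6.66. No neighbours in the order were set apart in either set.

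The fitted Csf2ra difference between LSK and HSC was -0.62 (95% interval -1.26 to 0.02, adjusted p = 0.156). Within set 1 it was -1.36 with no overlap of arrays, and within set 2 it was 0.11, and their difference of 1.48 did not pass the test of the interaction (adjusted p = 0.392). Fitted on set 1 alone it was called (adjusted p = 0.0128), where 6.98% of probe sets were. Also called within set 1 were DN2 below HSC, by -1.01 (adjusted p = 0.0410, against 11% of probe sets), and DN3 above LSK, by 1.48 (adjusted p = 0.00815, against 7.25%). The largest fitted difference of Csf2ra was 0.99 in pro-B against LSK (0.18 to 1.81, adjusted p = 0.0933). Within set 2, which alone holds pro-B, it was only 0.35. The LSK mean was 6.67 in that set and 6.08 in set 1. DN3 against ETP gave -0.05 (-0.69 to 0.59). The second probe set, 1420703_at, had HSC highest in set 2, at 8.06, 7.92 and 7.98, and DN3 lowest, at 6.09, 6.20 and 6.48, and its population means in set 1 spanned only 0.62. In the 13 fitted comparisons it was called once, higher in pro-B than in DN3 by 1.22 (adjusted p = 0.00295), against 7.64% of probe sets. The pro-B arrays were spread widely, at 8.26, 8.015 and 6.87, all above the DN3 arrays of set 2. For pro-B against DN3 1420704_at gave 0.62 over both sets (adjusted p = 0.290) and 1.08 in set 2 alone, the set that holds pro-B. In set 2 alone its adjusted p was 0.0502 over all probe sets and 0.0390 over all genes. Within set 2 1420703_at was also called lower than in HSC, by -1.73 in DN3 (adjusted p = 0.000939, against 10.1% of probe sets) and by -1.06 in ETP (adjusted p = 0.0408, against 7.4%). In set 1, DN3 was the highest population by 1420704_at (mean 7.56), while by 1420703_at it was level with DN2 at the bottom (5.76 and 5.78).

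For the 4 populations present in both sets, the interaction of population and set was tested for every gene. None of the 4 genes passed, while 0.638% of all genes did. The adjusted p was 0.168 for Csf2rb, 0.190 for Csf2ra, 0.353 for Cd33 and 0.778 for Csf3r. Before adjustment the values were 0.00290, 0.00357, 0.0150 and 0.191, so the sets may still differ for 3 of them. For Csf2ra the direction differed too, as in LSK against HSC, at -1.36 in set 1 and 0.11 in set 2.

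Transcripts of late granulocytes moved with part of these groups. Of 12 marker genes fixed for them 11 were measured, and their summed level on an array was 39.9 to 42.3 on the thymic arrays of set 1. On those of set 2 it was 50.6 to 54.9. In set 1 LSK reached 65.7 from a low of 43.3, and HSC 54.5 from a low of 41.1. In set 2 LSK reached 58.2 from 49.9, and HSC 72.0 from 51.6. It was highest in CLP, from 57.0 to 83.9, and in pro-B, from 65.0 to 72.5. CLP and pro-B thus exceeded every thymic array of their set. By the rule used, a mean at least 0.5 above the highest thymic array of the set, 11 arrays were raised: LSK 1 and 3, HSC 1, 2 and 5, CLP 1, 2 and 3 and pro-B 1, 2 and 3. The marker means of CLP 1, 2, 3 and the unnumbered CLP array were 7.63, 6.34, 5.54 and 5.18, and their Cd33 levels were 9.49, 9.22, 9.49 and 8.58. LSK replicates 1, 2 and 3, with marker means of 5.97, 3.94 and 5.26, had Csf3r levels of 6.78, 5.99 and 5.52. HSC replicates 1, 2 and 3, with marker means of 4.96, 4.65 and 3.74, had Csf3r levels of 6.87, 5.52 and 6.63. Cd33 in CLP and Csf3r in LSK and HSC thus did not have the order of the marker means. Cd33 did have it in HSC replicates 1, 2 and 3, at 4.24, 4.14 and 3.72. It did not in LSK, at 8.45, 8.35 and 8.74, nor in HSC and LSK of set 2. Pro-B replicates 1, 2 and 3 had marker means of 6.59, 6.41 and 5.91. Their Cd33 levels, 7.23, 6.60 and 6.41, had that order, while those of Csf3r, 5.12, 5.71 and 5.76, had the reverse. Csf2ra (1420704_at) had the order of the marker means in CLP, at 7.13, 6.89, 6.64 and 6.33, and in LSK, at 6.58, 5.83 and 5.84. In HSC, at 8.06, 6.90 and 7.38, and in pro-B it did not. By 1420703_at Csf2ra had the order in pro-B, at 8.26, 8.015 and 6.87, and not in CLP, LSK or HSC. Csf2rb (1455660_at) in CLP, at 7.80, 7.96, 7.59 and 6.90, was lowest on the unnumbered array, as was Cd33. In pro-B, at 6.66, 6.80 and 7.43, it had the reverse order. By 1421326_at Csf2rb had the order of the marker means in HSC replicates 1, 2 and 3, at 7.60, 6.36 and 6.06. HSC replicates 4, 5 and 6, with marker means of 5.21, 6.54 and 4.69, had the reverse, at 7.67, 7.23 and 8.11. These orders rest on few arrays and were not tested.

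Without these 11 arrays, no call of the 4 genes was gained or lost in the 10 comparisons that could be fitted. None of the 11 is a thymic array, so the comparisons among ETP, adult ETP, DN2 and DN3 lost no array of their own. Those could change only through the set term and the shared spread, and do not test the part of these transcripts. Cd33 then differed by 4.07 between LSK and HSC and 3.47 between CLP and HSC. In the thymus, where no array was removed, it gave -3.36 between DN2 and ETP and -4.17 between DN3 and ETP. Csf2rb gave -2.41 and -2.44 in the last 2 of these. For DN3 against DN2, Cd33 was -0.81 with an adjusted p of 0.0482, still under 2-fold. In ETP against HSC Csf3r was -0.76 (adjusted p = 0.00118), while Csf2rb, at -0.73, no longer passed the p threshold (adjusted p = 0.0663). In CLP against HSC Csf2rb was -0.87 in place of -0.25 (adjusted p = 0.267). CLP then rests on 1 array, which is assumed to vary like the other populations. No pro-B array was left, so the part of these transcripts in the 3 pro-B comparisons was not tested. The mean levels of markers of other myeloid cells ranged less widely. The mean of 9 macrophage genes was 3.61 to 4.62 over the arrays of set 1 and 4.64 to 5.46 over those of set 2. For 4 of 5 dendritic cell genes it was 4.55 to 5.19 and 4.75 to 5.72. The mean of 7 mast cell, basophil and eosinophil genes was highest in CLP, at up to 5.56, and in DN2 it ran from 4.39 to 4.55 against 3.90 to 3.98 in ETP of the same set. With all arrays, 3 of these 7 genes were called higher in CLP than in HSC, where 6.99% of all genes were called. Of the 11 late granulocyte genes 1 was, and of the 9 macrophage genes 1 was higher and 1 lower. The part of these other myeloid markers in the differences was not tested.

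**Figure D3:**
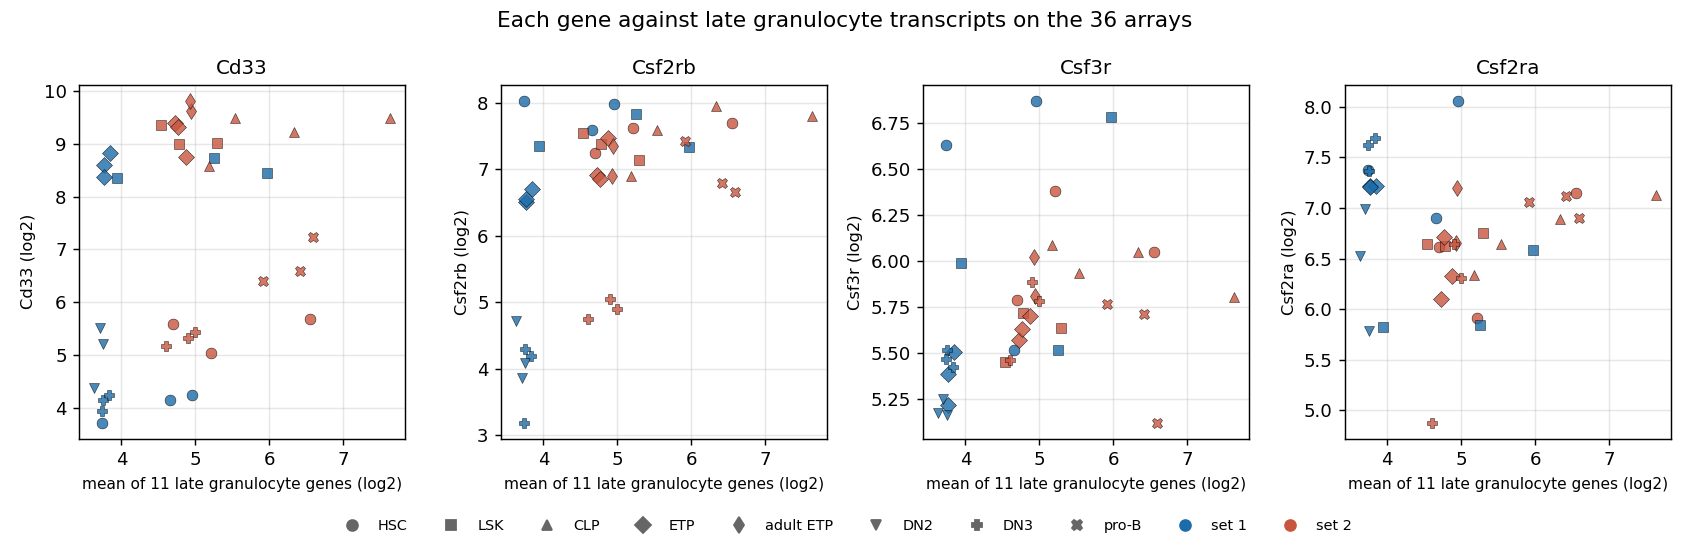
Log2 level of each gene (vertical axis) against the mean log2 level of 11 late granulocyte genes (horizontal axis) on the 36 arrays, with the population by shape and the set by colour. CLP replicate 1 lies furthest to the right, at 7.63, followed by pro-B replicate 1 and HSC replicate 5. In set 2 Cd33 is at 8.76 to 9.40 on ETP arrays, with marker means of 4.73 to 4.88. It is at 8.58 to 9.49 on CLP arrays, with marker means of 5.18 to 7.63. On pro-B arrays it is at 6.41 to 7.23, with marker means of 5.91 to 6.59.

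Around the 4 genes, 8 lists of pathway genes were followed, and each count is of genes called by the same fit. Of the 7 ligand genes (Csf1, Csf2, Csf3, Il3, Il5, Il6 and Il34) all were measured and 0 were called in any of the 13 comparisons. Their median difference lay between -0.12 and 0.14, where the median of all genes lay between -0.02 and 0.09.

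Of 7 measured receptors related to the 4, 1 was higher and 2 were lower in LSK, CLP and ETP than in HSC, with list medians of 0.02, 0.15 and -0.30 beside 0.01, 0.07 and 0.03 for all genes. The higher one was each time Csf1r, the M-CSF receptor, at 3.40 ± 0.44 in LSK, 4.60 ± 0.51 in CLP and 5.04 ± 0.44 in ETP. Csf2rb2 and Epor, the erythropoietin receptor, were the lower ones, with Epor at -2.15 in LSK. From ETP to DN2, 0 were higher and 2 lower, with a list median of -0.76 against -0.02. Csf1r fell by 5.91 ± 0.55 (adjusted p = 1.99e-09), and Il6ra, the IL-6 receptor, stood at -1.53 (adjusted p = 0.00346). Csf1r was also higher in ETP than in LSK, by 1.63 (adjusted p = 0.0246), a step at which Cd33 differed by 0.06. In pro-B, Il6st, the signalling chain shared by IL-6 family receptors, was lower than in LSK by -2.06 and than in CLP by -1.75.

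Of 7 measured kinases and STAT factors, 1 was higher and 1 lower in LSK than in HSC (list median -0.58). Jak2, the kinase bound by the beta chain, was lower by -1.59 ± 0.19 (adjusted p = 7.96e-08), and Syk, a kinase of immune receptors, was higher by 1.04. Stat5a, a factor that these receptors activate, rose by 1.69 ± 0.22 from ETP to DN2 (adjusted p = 1.21e-06), the step at which Csf2rb fell. It was the only kinase or STAT gene called there. Syk was lower in DN3 than in DN2 by -1.07 and higher in pro-B than in DN3 by 2.49.

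Of 8 adaptors and phosphatases, Tyrobp, the adaptor of activating myeloid receptors, was called most often. It was higher than in HSC by 1.92 ± 0.20 in LSK, 2.32 ± 0.23 in CLP and 2.41 ± 0.20 in ETP. In DN2 it was lower than in ETP by -1.47 ± 0.25, and in DN3 lower than in DN2 by -3.51 ± 0.25, so most of its fall came a step later than that of Cd33. DN3 against DN2 called 0 of the 8 higher and 3 lower, with a list median of -0.86 against 0.05 for all genes. Gab2, a docking adaptor, fell there by 2.44. Inpp5d, a lipid phosphatase that restrains such receptors, was higher in pro-B than in DN3 by 3.27 ± 0.22, one of 4 of 8 higher and 0 lower (list median 0.82).

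Among 7 feedback and target genes the suppressors of cytokine signalling Socs2 and Socs3 accounted for every call. In ETP both were below HSC, Socs2 by -2.57 ± 0.30 and Socs3 by -2.93 ± 0.44, with Socs3 at -3.996 within set 1 and -1.86 within set 2. Socs2 rose by 2.22 from ETP to DN2 and fell by 2.14 from DN2 to DN3, where Socs3 rose by 2.58. The list medians in these 3 comparisons were -0.26, 0.17 and -0.04.

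Of 5 measured myeloid transcription factors, 2 were higher and 2 lower in LSK than in HSC (list median 0.26), among them Irf8, a factor of monocytes and dendritic cells, at 2.19 and Gfi1 at -1.57. In ETP against LSK 3 were lower and 0 higher (list median -1.04), with Irf8 at -1.95 and Cebpa, the granulocyte-monocyte factor, at -1.51. Cd33 differed by 0.06 at that step and was not called. Spi1, which encodes PU.1, fell by 1.02 ± 0.28 from ETP to DN2 (adjusted p = 0.0252) and was the only factor of the list called there. It was higher in pro-B than in DN3 by 1.27 (adjusted p = 0.00105).

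Of 5 primary granule genes, Mpo, the peroxidase of myeloid progenitors, was higher in LSK than in HSC by 5.11 ± 0.64 and Prtn3 lower by -1.58 ± 0.19, with a list median of -0.06. Mpo fell in 2 steps, with differences of -2.78 from ETP to DN2 and -3.38 from DN2 to DN3, and stood in pro-B at -5.00 against CLP. Ctsg, a granule protease, was also lower there, at -1.39. These were 2 of the 5 lower and 0 higher, while the summed late granulocyte markers of CLP and pro-B were both raised.

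Of 7 other Siglec genes measured, 0 were called in LSK against HSC, where Cd33 rose by 4.09 (list median 0.09). Siglece, a myeloid inhibitory Siglec, was higher than in HSC by 1.41 in CLP and by 1.20 in ETP. Siglecf, known from eosinophils and macrophages, was higher in ETP than in HSC by 2.83 ± 0.26 and than in LSK by 1.85 ± 0.26. From ETP to DN2 Siglece fell by 1.16, while Siglecf fell by 2.89 from DN2 to DN3. Siglecg and Cd22, the inhibitory Siglecs of B cells, were higher in pro-B than in CLP by 2.09 and 1.92, where Cd33 was lower by -2.45. The list had 2 of 7 higher and 0 lower in that comparison, with a median of -0.01.

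**Figure D4:**
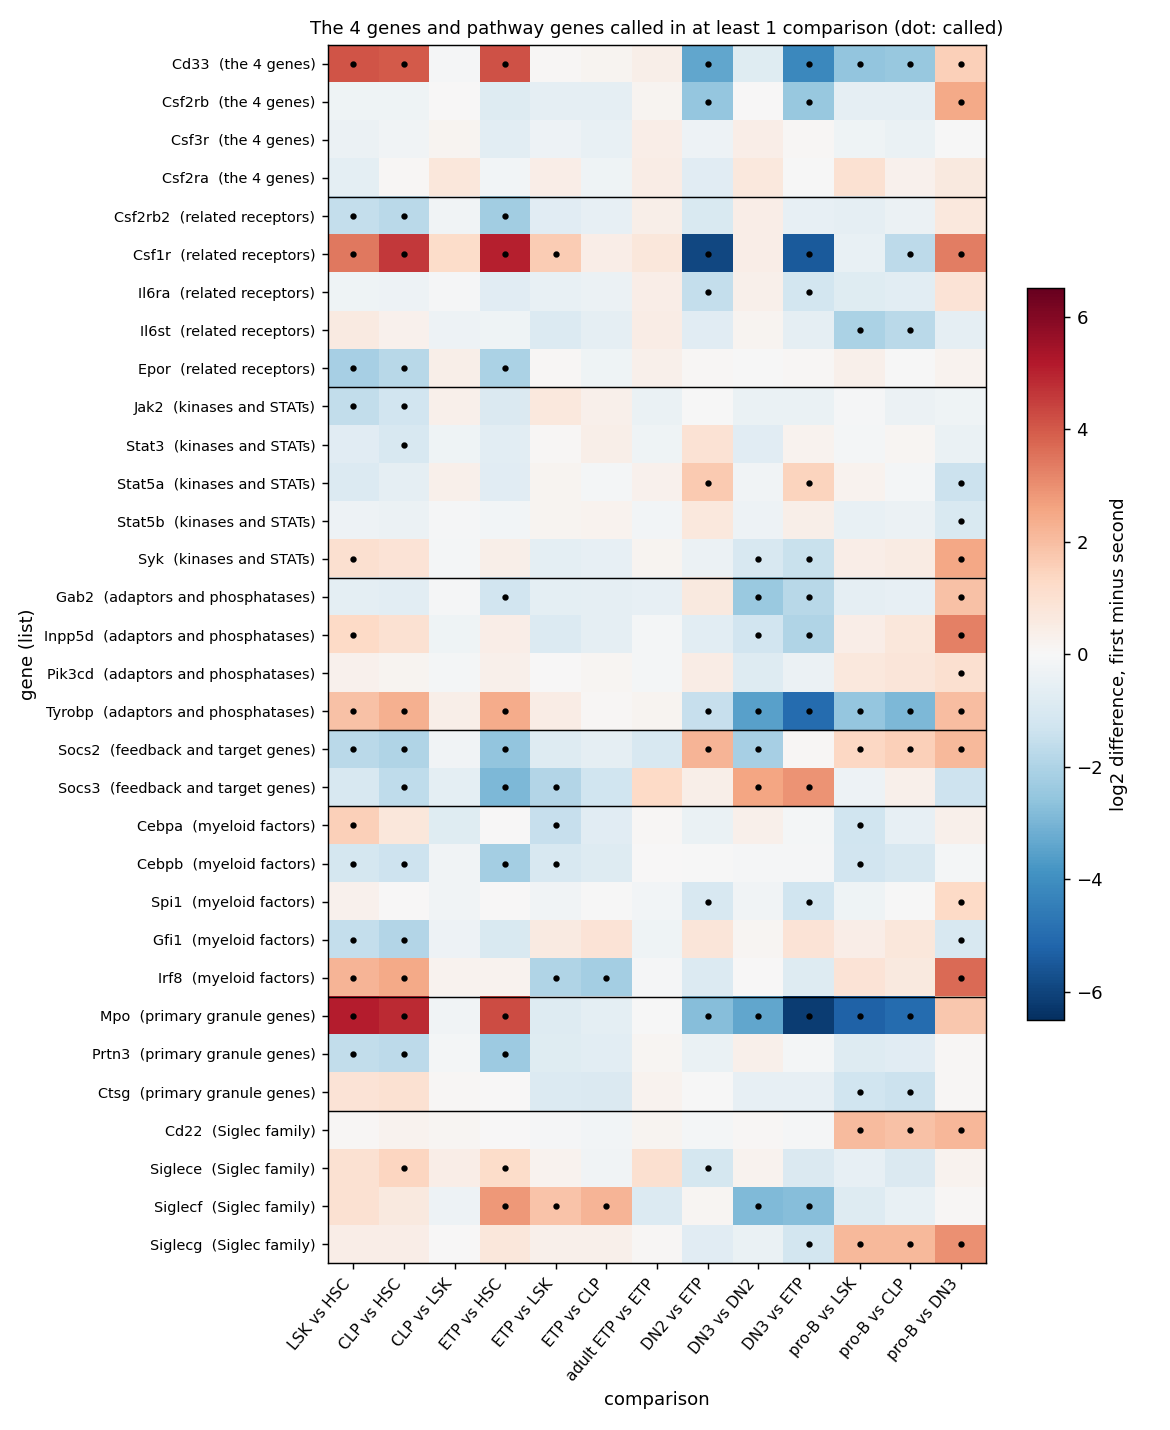
Fitted log2 difference (colour) of the 4 genes and of the 28 pathway genes called in at least 1 comparison (rows, by list) across the 13 comparisons (columns), with a dot for each called difference. Csf1r, Tyrobp and Mpo are called higher than in HSC in the same 3 columns as Cd33, and Csf2rb has no dot in them.

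The likeness of other genes to each of the 4 was measured as Pearson's r over the 12 population means of both sets, each set centred on the populations it shares with the other. It was taken over 2494 genes whose centred means had an SD of at least 0.5. The points share the arrays and the normalization, and r is a description. The genes most like Cd33 were Klrd1, a natural killer receptor chain (0.98), H2-DMa, which loads peptides on class II molecules (0.97), Pip4k2a (0.97), the efflux pump Abcb1b (0.96) and Sh2d5 (0.96). For Csf2rb they were Gimap6 (0.98), Specc1 (0.97), Lmo2, a transcription cofactor of stem cells (0.97), the calcineurin subunit Ppp3ca (0.96) and Skap2 (0.96). For Csf3r they were Atf3 (0.96), Nr4a1 (0.93), Gm5124 (0.92), Egr1 (0.91) and Trim72 (0.91), with the SD of Csf3r itself only 0.34. For Csf2ra the closest was Myo19 at 0.68, followed by Tlr4 (0.63) and Dock9 (0.61), so no gene tracked it closely. Among the 4 genes, r was 0.71 between Csf2rb and Csf3r, 0.48 between Csf2rb and Cd33, 0.21 between Csf2ra and Csf2rb and -0.03 between Csf2ra and Cd33. Csf2rb2 had an r of 0.86 with Csf3r and 0.79 with Csf2rb.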

How the data were processed

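Expression was measured on 36 one-colour arrays with amplified, biotin-labelled cDNA from sorted cells, per the labels. The authors deposited log2 expression values; RMA is named in the submitters' processing notes. No source used here gives the log base, and base 2 was assumed. Of 45101 probe sets 64 are controls. The probe set with the highest mean stood for each gene, among those with 1 gene. With limma 3.58.1 (R 4.3.3), lmFit and eBayes fitted population and deposit set over all arrays, with Benjamini-Hochberg adjustment over 18193 genes. The number of arrays limits the precision. The series' design text calls the replicates biological. Replicate numbers did not pair the arrays. The scripts were first tried on simulated arrays with known differences. Python 3.11.15 with pandas 2.3.3, numpy 2.4.6 and matplotlib 3.10.9 made tables and plots. The genes and lists were chosen with earlier results of these data known. Named genes are the 4, in each comparison the 2 called genes of each pathway list with the largest difference, and the 5 genes most like each; other list members are examples of a count. Of 111 list genes, 10 were not analysed here.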

Additional observations from a re-analysis of the deposited data

How the results depend on the processing

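The count of called genes changed in 4 comparisons. It was 2 in place of 1 for LSK against HSC in set 1 alone. For ETP against HSC it was 2 in set 1 alone, 3 with no minimum difference and 2 with every probe set tested on its own. For pro-B against DN3 it was 3 in place of 2 in set 2 alone, where Csf2ra was 1.08 (adjusted p = 0.0390), and 3 with every probe set tested on its own. Leaving out single arrays gave 0 to 1 for DN3 against DN2, with DN2 replicate 2 the array that changed it, and changed no other count. The replicate block had a consensus correlation of -0.019 and left all 13 counts as they were, with Cd33 at 4.09 in LSK against HSC. Arrays of the same number did not deviate together: the median correlation of their deviations was -0.003 in set 1 and -0.014 in set 2, and 9 of 35 arrays correlated best with their own number.

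Differences that changed sign were uncalled in the main fit and in the setting that changed them, and the cause was not tested. In the main fit they reached 0.71, for Csf2ra in CLP against LSK. One of them, Csf2ra in LSK against HSC (-0.62 in the main fit), was called in set 1 alone. There it was -1.36 (limma, adjusted p = 0.00899 over all genes). In set 1 alone Csf2rb gave -0.33 for DN3 against DN2 and Csf2ra 0.35 for DN3 against ETP. In set 2 alone Csf2ra gave 0.11 for LSK against HSC and -0.29 for ETP against LSK, Csf2rb 0.043 for CLP against HSC, Csf3r 0.033 for ETP against LSK, and Cd33 0.072 for CLP against LSK and -0.035 for ETP against CLP. With no set term Csf2ra gave -0.25 for CLP against HSC and 0.052 for ETP against CLP, and Cd33 0.38 for CLP against LSK and -0.31 for ETP against CLP. With the mean of all probe sets Csf2ra gave -0.17 for CLP against HSC and Csf2rb -0.058 for CLP against LSK. With quantile normalization Csf2rb gave -0.041 for DN3 against DN2 and Csf2ra 0.0087 for DN3 against ETP. By 1420703_at Csf2ra gave -0.42 for CLP against HSC, -0.073 for CLP against LSK, -0.26 for ETP against LSK and -0.26 for DN3 against DN2, and by 1421326_at Csf2rb gave -0.12 for CLP against LSK. Without the arrays of raised late granulocyte transcripts Csf2ra gave -0.015 for CLP against HSC, 0.021 for ETP against HSC and 0.036 for ETP against CLP, and Csf2rb -0.56 for CLP against LSK, 0.14 for ETP against CLP and -0.034 for DN3 against DN2.

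Over single arrays left out, Cd33 ran from -0.19 to 0.11 for CLP against LSK, from -0.049 to 0.31 for ETP against CLP and from -0.027 to 0.19 for ETP against LSK. Csf2ra ran from -0.11 to 0.23 for CLP against HSC and from -0.17 to 0.28 for DN3 against ETP. Csf2rb ran from -0.12 to 0.23 for CLP against LSK, from -0.13 to 0.33 for DN3 against DN2 and from -0.053 to 0.39 for adult ETP against ETP, and Csf3r from -0.14 to 0.18 for pro-B against DN3. The filter on genes of low mean changed no call.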
